A study of Mus musculus with 18 samples.

Results

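A module of 56 cell cycle and DNA replication genes was followed through the 4 genotypes of granule neuron progenitors (GNPs) and the 2 tumours of the series. The genes were taken from a fixed list of symbols, and each was read from the probe of that symbol with the highest mean log2 level over all 18 arrays. A probe was found for 54 of the 56 genes, out of 19057 genes measured, and Mki67 and Ccnb1 were not analysed here. The list was divided into 26 genes of S phase and 30 of mitosis, of which 26 and 28 had a probe. The samples were hybridised to Illumina MouseWG-6 v2.0 BeadChips, and the deposited values are background-corrected, normalised log2 intensities.

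GNPs came from cerebella at postnatal day 6, purified on a Percoll gradient and by pre-plating, with 4 arrays each of wild type (WT), Ptch+/-, NdpKO and NdpKO;Ptch+/-. Ptch+/- mice carry 1 inactive copy of the Sonic hedgehog receptor gene and develop medulloblastoma (MB). NdpKO mice lack Norrin, a secreted ligand of the Frizzled4 receptor, through a lacZ cassette in every cell, so the deletion was not limited to the progenitors. WT and Ptch+/- were labelled as C57Bl/6 and NdpKO as mixed in strain, with no strain given for 3 of the 4 compound mutants, so by these labels strain and Ndp genotype cannot be told apart. The paper's methods instead describe controls taken from the same breeding cohort. By those methods NdpKO and NdpKO;Ptch+/- mice were male, while controls were of both sexes, so sex may also differ with Ndp genotype. This series holds a single Ptch+/- tumour and a single NdpKO;Ptch+/- tumour, whereas the paper reports a limma comparison between its tumour types. The labels gave the tumours the same age as the GNPs, whereas the study's methods describe tumours of symptomatic mice. The paper gives the size of each GNP group in animals, and that number matches the arrays per group in this series. Whether a tumour array came from 1 animal or a pool was not given in the sources used here. The p-values measure the spread between these arrays.

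GNPs are the dividing precursors of cerebellar granule neurons, which proliferate in the external granule layer under Sonic hedgehog. Before S phase, replication origins are licensed when the origin recognition complex, Cdc6 and Cdt1 load the ring-shaped MCM helicase, and Geminin (Gmnn) blocks Cdt1 afterwards. Cyclin E and E2F factors switch on the S phase genes, whereas cyclin B with Cdk1 and the kinases Plk1, Aurka and Aurkb drive mitosis. The promoters of many mitotic genes are bound by FoxM1 and, at other stages of the cycle, by the DREAM complex.

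Ptch1 and Ndp were read first as a check of the labels. The brighter Ptch1 probe lay between 7.63 and 8.23 in the 8 arrays of Ptch+/- and NdpKO;Ptch+/- GNPs and between 8.56 and 8.97 in the 8 other GNP arrays, with no overlap. In the tumours it measured 8.69 (Ptch+/-) and 7.01 (NdpKO;Ptch+/-). The Ptch+/- tumour thus lay within the range of Ptch1-intact GNPs, and the probe could not check its label. Ndp lay between 4.1 and 4.13 on every array, at the array median of 4.13, so its probe could not check the Ndp genotype. NdpKO;Ptch+/- replicate 2 was grouped by its title, although its genotype label reads Ndp knockout, and its Ptch1 level of 7.80 was below all 4 NdpKO arrays. NdpKO replicate 4 and NdpKO;Ptch+/- replicate 1 stood apart from their groups in earlier work on all probes, and results that rest on them are also given without them. The progenitor markers Atoh1, Pax6 and Nhlh1 were below 5 on every array, whereas 6 of 9 progenitor markers with a probe were at or above 5 on all 16 GNP arrays. A log2 level of 5 is used here as the limit near background.

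Of the 54 members, 40 had a mean of 5 or more over the 18 arrays, 21 of S phase and 19 of mitosis. Another 12 members were below 5 on every array, namely Orc1, Gmnn, Pola1, Prim1, Ccne1, Ccna2, Ccnb2, Bub1, Ube2c, Cenpe, Kif20a and Ect2. Gmnn lay between 4.11 and 4.13 in GNPs and Ccne1, cyclin E1, between 4.15 and 4.27, so neither gave a usable level. Cenpf and Nuf2 passed 5 on some arrays only. Medians over the members are given for those with a mean of 5 or more and for all measured, and the former follow a filter on the measured values.

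Promoter sequence was examined because S phase and mitosis genes are known to be read through different promoter elements, and the members divided by phase in the GNP comparisons. Promoter windows of 300 bases, 250 before and 50 after the annotated start, were available in RefSeq (GRCm38.p6) for 48 of the 56 members. Windows were searched on both strands for E2F letters (TTTGGCGC, TTTCGCGC, TTTCCCGC, TTTGGCGG or TTTCCCGG), for cell cycle genes homology region (CHR) letters (TTTGAA or TTCGAA) and for CCAAT. E2F letters were found for 11 of 23 S phase members (47.8%), 2 of 25 mitosis members (8%) and 4.1% of all 27025 genes with a window. CHR letters were found for 6 of 23 S phase members (26.1%), 18 of 25 mitosis members (72%) and 21.7% of all genes. CCAAT was found for 65.2%, 68% and 41.1%, respectively, and CHR letters together with CCAAT for 21.7%, 60% and 8.61%. Matches of different motifs overlapped in 1 of 53 member windows. E2F letters were thus more frequent in the S phase and CHR letters in the mitosis windows, and a match is a description of sequence, not a measured binding site.

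The 250 bases before the start are shown for 4 members whose levels changed in at least 1 comparison, to set an S phase promoter beside 3 mitosis promoters of unlike content. They lie at chr11:98907901-98908150 (Cdc6, plus strand), chr10:69352913-69353162 (Cdk1, minus strand), chr9:61946800-61947049 (Kif23, minus strand) and chr3:40799701-40799950 (Plk4, plus strand), and capitals mark the matched letters:
Cdc6: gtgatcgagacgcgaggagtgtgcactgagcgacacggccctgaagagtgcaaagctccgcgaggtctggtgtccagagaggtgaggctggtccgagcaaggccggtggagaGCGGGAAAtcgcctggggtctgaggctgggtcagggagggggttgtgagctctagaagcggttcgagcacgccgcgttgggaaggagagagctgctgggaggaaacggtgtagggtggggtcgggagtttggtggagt
Cdk1: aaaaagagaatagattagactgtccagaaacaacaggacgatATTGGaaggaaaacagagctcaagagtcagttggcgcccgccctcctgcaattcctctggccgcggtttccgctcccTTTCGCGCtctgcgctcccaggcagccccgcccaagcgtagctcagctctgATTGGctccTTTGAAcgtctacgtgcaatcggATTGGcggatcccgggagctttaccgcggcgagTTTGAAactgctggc
Kif23: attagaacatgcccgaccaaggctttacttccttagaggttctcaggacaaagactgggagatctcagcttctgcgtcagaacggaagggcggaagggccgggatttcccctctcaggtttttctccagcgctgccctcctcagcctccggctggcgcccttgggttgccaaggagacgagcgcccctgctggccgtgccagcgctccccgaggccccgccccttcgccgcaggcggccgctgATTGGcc
Plk4: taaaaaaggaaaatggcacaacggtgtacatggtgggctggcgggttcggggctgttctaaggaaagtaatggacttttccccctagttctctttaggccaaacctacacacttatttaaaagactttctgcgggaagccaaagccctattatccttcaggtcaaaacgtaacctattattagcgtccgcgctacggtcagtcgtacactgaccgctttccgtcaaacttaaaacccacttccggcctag
Cdc6 held 1 E2F match, Cdk1 held 1 E2F match, 2 CHR matches and 3 CCAAT matches, and Kif23 held 1 CCAAT match. Kif23 also had a CHR match after its start, where Cdt1 had its E2F match, and that part is not printed. No match was found in the Plk4 window.

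**Figure D1:**
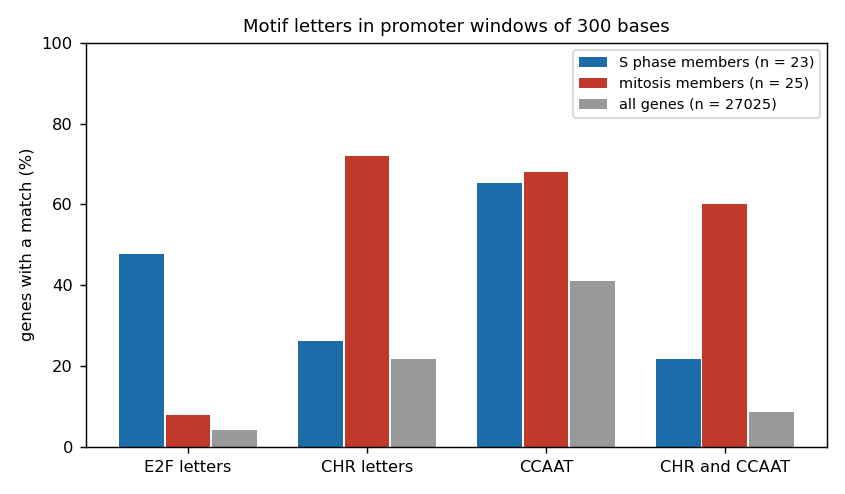
Share of genes (%) whose promoter window of 300 bases holds each motif, for 23 S phase members, 25 mitosis members and all 27025 genes with a window. E2F letters stand out in S phase members (47.8%) and CHR letters in mitosis members (72%).

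The comparison of Ptch+/- with WT GNPs asks how loss of 1 Ptch1 copy bears on the cell cycle genes of non-tumour progenitors. The licensing genes Cdc6 and Cdt1 and the centriole gene Plk4 fell in Ptch+/- GNPs, and no member rose. These were 3 of 54 members at an adjusted p below 0.05 (limma, Benjamini-Hochberg over all probes), against 1.09% of all 45281 probes. Most other mitosis members were measured lower without passing the test, whereas the MCM helicase genes were measured at or above their WT level.

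Cdc6, which loads the MCM helicase, measured 7.89, 8.30, 8.26 and 7.75 in WT replicates 1 to 4 and 7.12, 6.87, 7.11 and 7.30 in Ptch+/- replicates 1 to 4. All Ptch+/- arrays lay below all WT arrays. Its level fell by 0.95 ± 0.191 (SE) on the log2 scale, 1.93-fold, with an adjusted p of 0.037. Cdt1, the other loader, measured 11.02, 11.25, 11.33 and 11.06 in WT and 10.70, 10.58, 10.63 and 10.68 in Ptch+/- GNPs, again with no overlap, and fell by 0.52 ± 0.079 (adjusted p = 0.015). Plk4, the kinase that starts centriole duplication, measured 6.92, 7.20, 6.59 and 5.83 in WT and 5.20, 4.85, 5.14 and 4.82 in Ptch+/-. It fell by 1.63 ± 0.267 (adjusted p = 0.019), and 2 of the Ptch+/- arrays were below 5, near background. Cdc6 has 4 probes and Plk4 3, and these values rest on the brightest. Over 28 other settings, the mean of all probes among them, the difference ranged from -1.05 to -0.24 for Cdc6 and from -1.9 to -0.55 for Plk4. Cdt1 was called when any 1 array was left out. The Cdc6 call was lost without WT replicate 1, 2 or 3, without any 1 of the Ptch+/- arrays or without NdpKO;Ptch+/- replicate 2 (adjusted p 0.054 to 0.11), and the Plk4 call without Ptch+/- replicate 2 (0.056) or WT replicate 1, where it stood at the threshold.

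**Figure D2:**
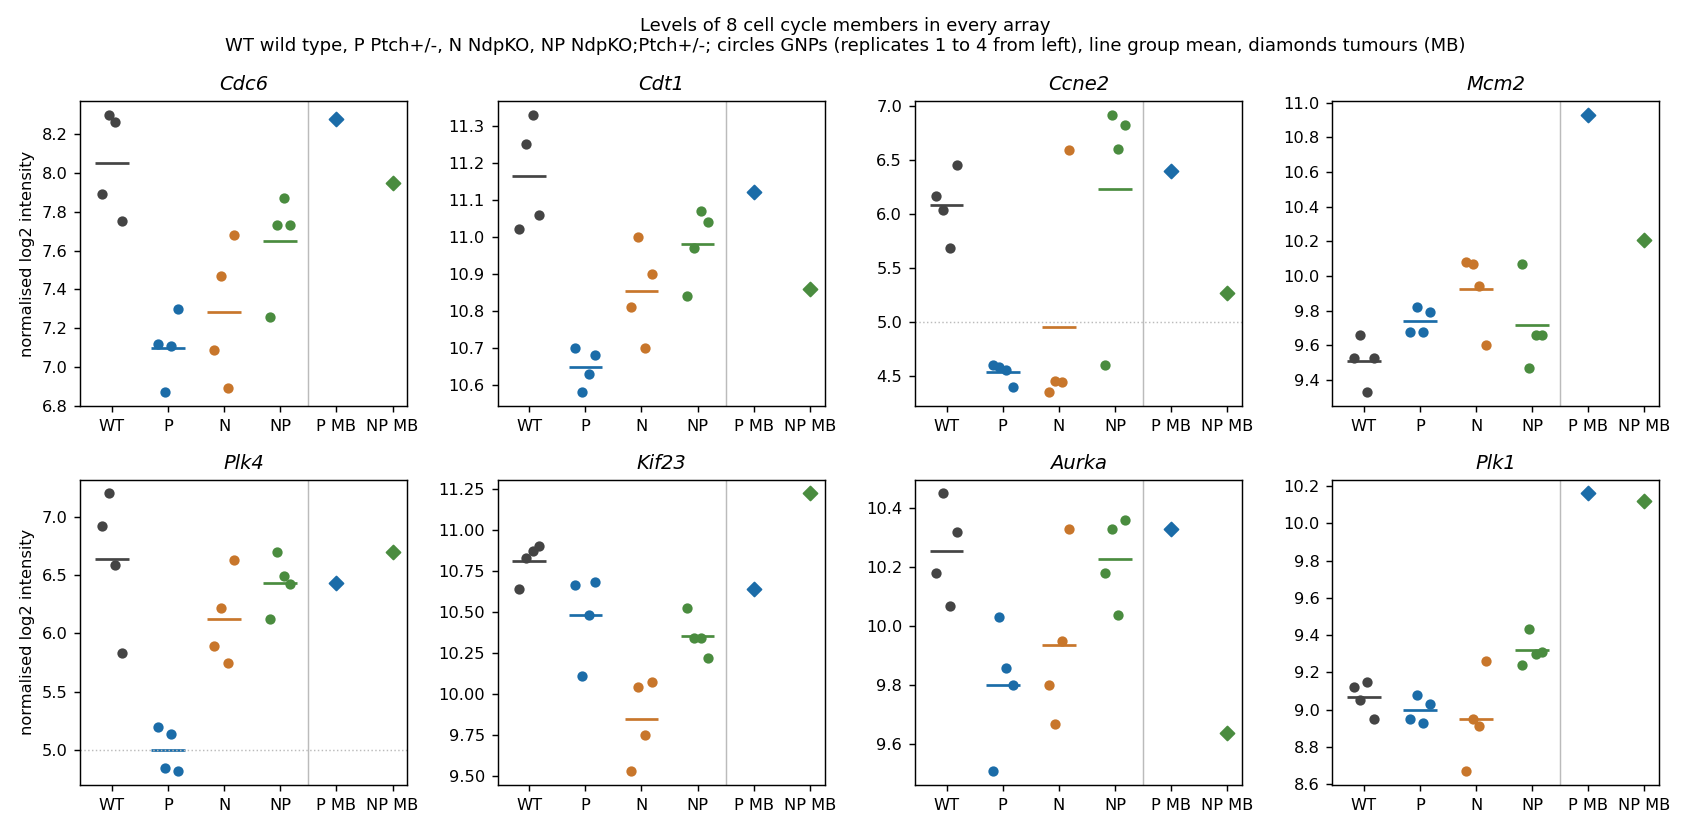
Normalised log2 intensity of 8 members in every array. Circles are the 4 replicates of each GNP group in order, lines are group means and diamonds are the 2 tumours; the dotted line marks a level of 5. Ptch+/- arrays lie below all WT arrays for Cdc6, Cdt1, Plk4, Ccne2 and Aurka, whereas both tumours lie above all GNP arrays for Plk1 and Mcm2.

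The S phase members went in both directions in the same comparison, also within the licensing and helicase genes and within the G1 to S regulators. Mcm2, Mcm3, Mcm4, Mcm5, Mcm6 and Mcm7, the 6 subunits of the replicative helicase, had differences of 0.23, 0.16, 0.21, 0.11, 0.27 and 0.01, none called (adjusted p 0.2 to 0.99). Mcm4 and Mcm2 were higher in all Ptch+/- than in all WT arrays. E2f1, a transcription factor of the G1 to S transition, measured 10.93, 10.88, 10.80 and 10.82 in WT and 11.13, 11.25, 11.13 and 11.13 in Ptch+/-, without overlap, and missed the call (0.30 ± 0.0771, adjusted p = 0.088). Ccne2, cyclin E2, which activates Cdk2, measured 6.17, 6.04, 5.69 and 6.45 in WT and 4.60, 4.58, 4.56 and 4.40 in Ptch+/-. As every Ptch+/- array was near background, its fold was not measured, and the WT mean of 6.09 was 2.12-fold above the level of 5. The WT arrays varied around that mean, so this value is not a lower bound, and the difference was not called (adjusted p = 0.21). Pcna, the sliding clamp, ranged from 5.07 to 6.57 in WT and from 4.65 to 6.38 in Ptch+/-, a spread far wider than its difference of -0.19 ± 0.415. Rrm2, the small subunit of ribonucleotide reductase, differed by 0.17 ± 0.0787 (adjusted p = 0.38), and its other probes by 0.42 and -0.34, both uncalled. The median difference of the 21 S phase members was 0.04 (0.012 over all 26), and 0.023 over the 6940 genes with a mean of 5 or more.

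Mitosis members were mostly lower in Ptch+/- GNPs, with a median difference of -0.231 over 19 genes (-0.09 over all 28). Of the 19, 15 had a negative difference (78.9%), against 47.1% of the 6940 genes. Aurka, the kinase of spindle poles, measured 10.18, 10.45, 10.07 and 10.32 in WT and 9.51, 10.03, 9.86 and 9.80 in Ptch+/-, and was not called (-0.45 ± 0.145, adjusted p = 0.17). Cdk1 differed by -0.35 ± 0.127, Aurkb, the catalytic part of the passenger complex, by -0.43 ± 0.168, the kinetochore gene Ndc80 by -0.73 ± 0.297 and Foxm1 by -0.27 ± 0.123, none of them called (adjusted p 0.23 to 0.38). Plk1 (-0.07 ± 0.0949) and Top2a, which untangles DNA (0.16 ± 0.0901), differed by little. A dimmer Top2a probe fell by 0.85 with an adjusted p of 0.045, so the direction of Top2a depended on the probe. Bub1b, a checkpoint kinase, was the single one of the 19 that was higher in all Ptch+/- than in all WT arrays (0.33 ± 0.105, adjusted p = 0.16).

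Groups that did not overlap were counted over the 40 members. Ptch+/- lay wholly below WT for 12 members, 8 of them of mitosis, against 11.8% of the 6940 genes, and wholly above WT for 4 members, against 12%. Without the 2 arrays that stood apart, which are in neither group but enter the estimate of the spread, 9 members were called against 3.1% of probes, and a fit of WT and Ptch+/- alone called 7, without Plk4 (adjusted p = 0.06). With NdpKO;Ptch+/- replicate 2 regrouped by its genotype label, Cdc6 was not called (adjusted p = 0.058). Leaving out WT replicate 1 left 1 call. For the fits that called 7 and 1, the share of all probes is not given here. The 6 added without the 2 arrays that stood apart were Ccne2, Cdk1, Aurkb, Kif2c and Anln (lower) and E2f1 (higher). Those arrays were singled out by their values, and leaving them out narrows the estimated spread, so the added calls are not separate support.

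In bulk RNA, fewer dividing cells cannot be told apart from less of each RNA per cell. Other cell types moved with the same comparison. Astrocyte and Bergmann glia markers, 9 of 11 with a mean of 5 or more, averaged 9.80 to 10.41 in WT and 8.91 to 9.27 in Ptch+/- GNPs, and all 9 had negative differences. Endothelial markers, 9 of 12, averaged 7.11 to 8.42 and 6.43 to 7.19, and their defining genes Kdr and Tie1 were below 5 on every array. Microglia and leukocyte markers, 3 of 10, averaged 7.83 to 8.68 and 6.70 to 7.77, with Ptprc below 5 throughout. Differentiating granule neuron markers, 9 of 12, averaged 9.55 to 9.65 in WT and 10 to 10.2 in Ptch+/-, with Gabra6, Tubb3 and Snap25 below 5 throughout. Granule neuron progenitor markers, 6 of 9, averaged 10.75 to 10.95 in WT and 11.02 to 11.19 in Ptch+/-, without overlap. Their part in the member differences was not tested.

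**Figure D3:**
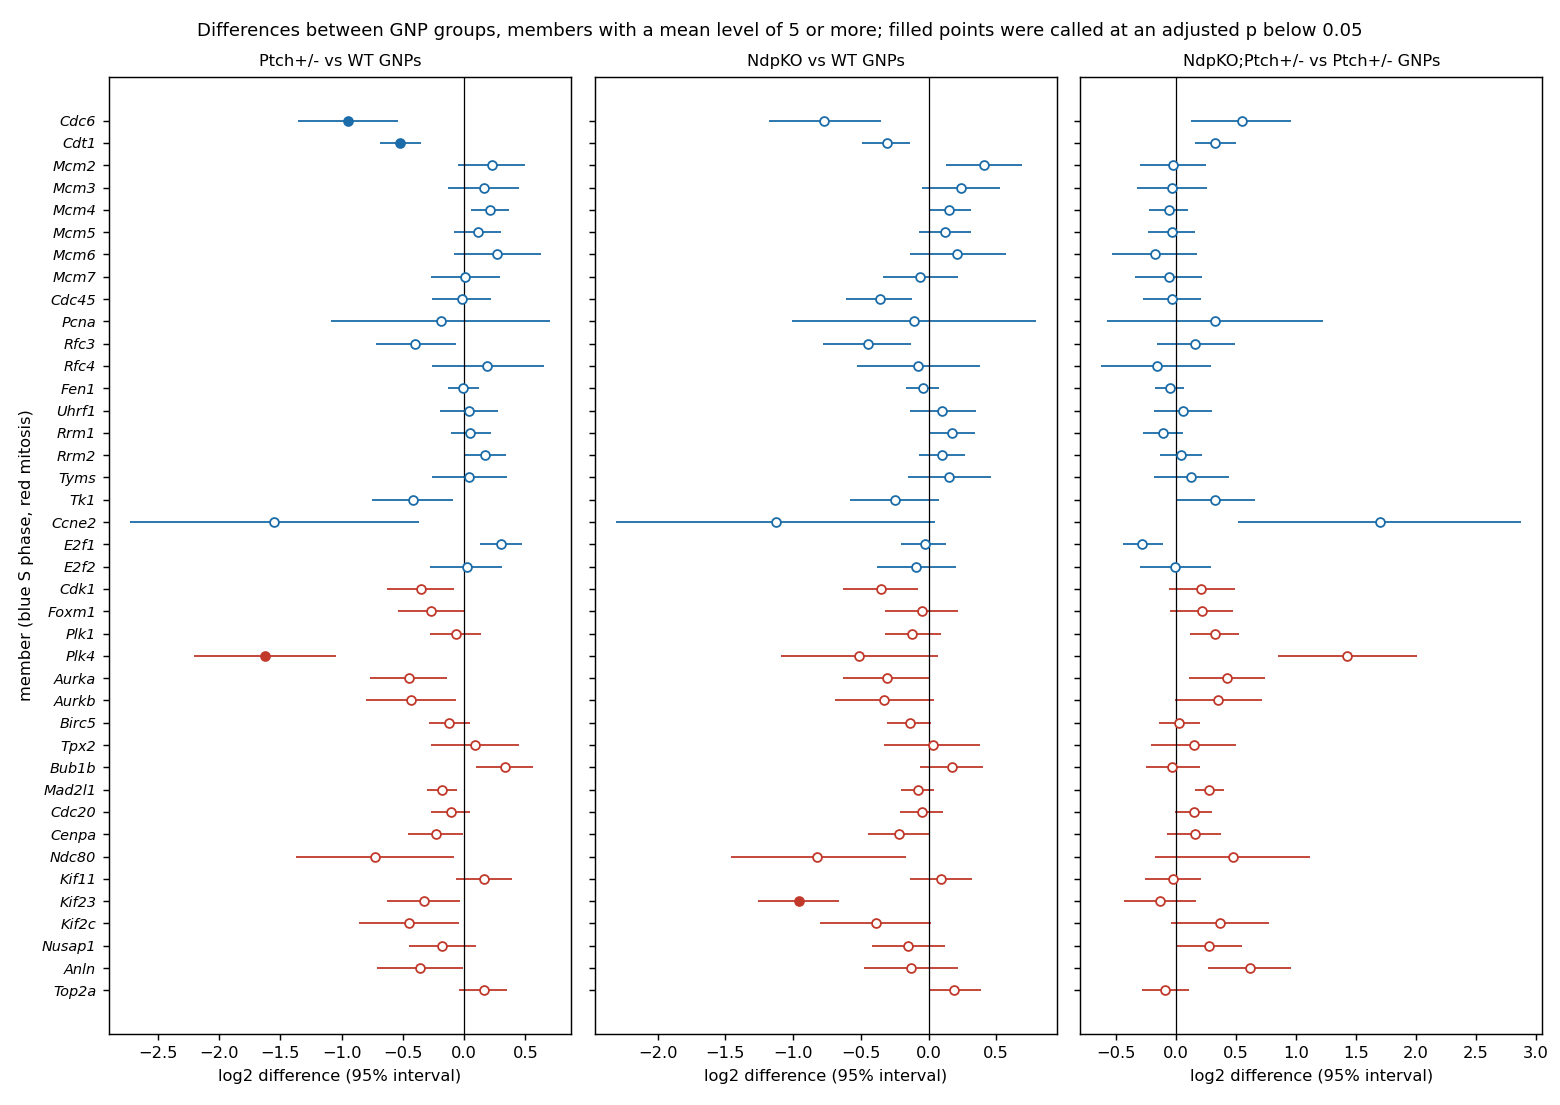
Log2 differences with 95% intervals for the 40 members with a mean of 5 or more in 3 comparisons of GNP groups, S phase in blue and mitosis in red. Filled points were called (Cdc6, Cdt1, Plk4 and Kif23); mitosis members lie mostly below 0 in the first and second panels and above 0 in the third. Comparisons share control arrays, so the panels are not independent.

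The comparison of NdpKO with WT GNPs asks what loss of Norrin did in progenitors with intact Ptch1. Kif23, a kinesin of the central spindle needed for cytokinesis, was the 1 member of 54 that was called, against 0.307% of probes. It measured 10.64, 10.83, 10.87 and 10.90 in WT and 9.53, 10.04, 9.75 and 10.07 in NdpKO GNPs, and no NdpKO array reached a WT array. Its level fell by 0.96 ± 0.139 (adjusted p = 0.017). The other Kif23 probes differed by -0.32, -0.06 and -0.03 and were not called. The call was lost without NdpKO replicate 1 or 3 (adjusted p 0.064 and 0.065), and 0 members were called with NdpKO;Ptch+/- replicate 2 placed by its genotype label.

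Mitosis members had a median difference of -0.144 in NdpKO GNPs (-0.064 over all 28), with 15 of 19 negative. S phase members had a median of -0.044 (-0.004 over all 26), and the 6940 genes one of 0.018. NdpKO arrays lay wholly below WT for 4 members, Cdc6, Cdt1, Rfc3 and Kif23, against 4.94% of genes. Cdc6 differed by -0.77 ± 0.191 (adjusted p = 0.13) and Cdt1 by -0.31 ± 0.079 (adjusted p = 0.13). Mcm2 differed by 0.41 ± 0.128 and Cdk1 by -0.35 ± 0.127, uncalled (adjusted p 0.22 and 0.31). Plk1 (-0.12), Aurka (-0.31), Foxm1 (-0.05), Top2a (0.19, and -0.39 by a dimmer probe), Mcm6 (0.21), Pcna (-0.11), Rrm2 (0.10) and E2f1 (-0.03) were not called either.

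A single NdpKO array set the spread of this group. The mean of the 19 mitosis members was 9.52, 9.65, 9.50 and 9.96 in NdpKO replicates 1 to 4, and 9.86, 9.92, 9.88 and 9.84 in WT. Replicate 4 thus lay above every WT array, and the other 3 below. Ccne2 gave the same picture, at 4.35, 4.45 and 4.44 in replicates 1 to 3 and 6.59 in replicate 4. Without replicate 4 and the NdpKO;Ptch+/- array, 8 members were called against 2.36% of probes. These were Cdc6, Ccne2, Cdk1, Aurkb, Ndc80, Kif23 and Kif2c (lower) and Mcm2 (higher), and the mitosis median became -0.254. Replicate 4 was singled out by its values and was the high array, so a lower median follows from leaving it out. The added calls are a description of the remaining arrays. Leaving out replicate 4 alone gave 3 calls, with the share of all probes not given here. Astrocyte markers averaged 8.46, 8.94, 9.07 and 9.67 in NdpKO replicates 1 to 4 and endothelial markers 6.46, 6.96, 7.12 and 7.77, so replicate 4 was the highest in both. WT arrays averaged 9.80 to 10.41 and 7.11 to 8.42 for these lists. Microglia and leukocyte markers averaged 6.19 to 7.09 in NdpKO and 7.83 to 8.68 in WT, and differentiating granule neuron markers 9.84 to 10.23 and 9.55 to 9.65, neither with overlap. Progenitor markers averaged 10.96 to 11.3 in NdpKO and 10.75 to 10.95 in WT. The part of these markers was not tested.

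**Figure D4:**
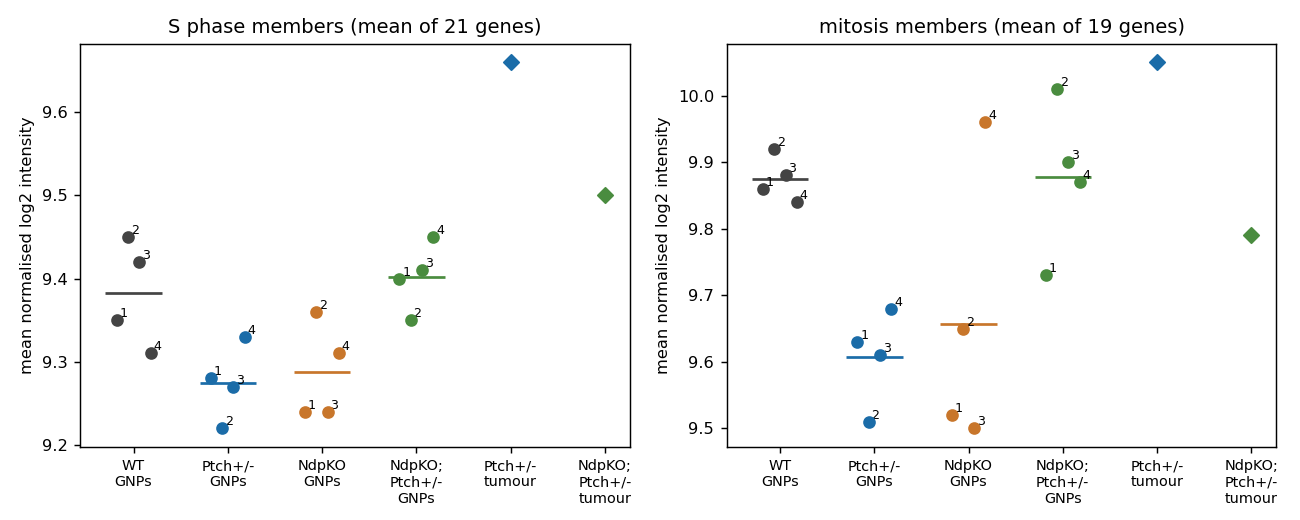
Mean normalised log2 intensity of 21 S phase members (left) and 19 mitosis members (right) in each array, with replicate numbers beside the GNP points, group means as lines and tumours as diamonds. NdpKO replicate 4 (mitosis 9.96) and NdpKO;Ptch+/- replicate 1 (9.73) lie away from the other arrays of their groups.

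Loss of Norrin on the Ptch+/- background was read from NdpKO;Ptch+/- against Ptch+/- GNPs. No member was called (limma), with 10 of 54 at an unadjusted p below 0.05 against 8.67% of probes, and 0.0155% of all probes passed the adjusted threshold. Mitosis members had a median difference of 0.217 (0.135 over all 28), with 15 of 19 positive, whereas S phase members had one of -0.025 (0.001 over all 26) and the 6940 genes one of -0.01. NdpKO;Ptch+/- arrays lay wholly above Ptch+/- for 6 members, Cdt1, Plk1, Plk4, Aurka, Mad2l1 and Anln, against 4.44% of genes.

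Plk4 measured 6.12, 6.70, 6.49 and 6.42 in NdpKO;Ptch+/- GNPs, all above the Ptch+/- arrays (1.43 ± 0.267, adjusted p = 0.14). Mad2l1, a spindle checkpoint protein, measured 10.82, 10.94, 10.88 and 10.85 against 10.47, 10.59, 10.65 and 10.64 (0.28 ± 0.0549, adjusted p = 0.15). Plk1 measured 9.24, 9.43, 9.30 and 9.31 against 8.95, 9.08, 8.93 and 9.03 (0.33 ± 0.0949, adjusted p = 0.33). E2f1 measured 11.05, 10.79, 10.86 and 10.83 (-0.28 ± 0.0771, adjusted p = 0.31). It was the 1 of 40 members wholly below Ptch+/-, where 347 of the 6940 genes were, so this is no excess over all genes. Among the other members named throughout, Cdk1 (0.21), Aurka (0.43), Foxm1 (0.22), Top2a (-0.09, and 0.66 by a dimmer probe), Mcm2 (-0.02), Mcm6 (-0.17), Pcna (0.33) and Rrm2 (0.04) were uncalled (adjusted p 0.41 to 0.98).

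Ccne2 again followed single arrays, at 4.60 in NdpKO;Ptch+/- replicate 1 and at 6.92, 6.60 and 6.82 in replicates 2 to 4. Without that array alone 1 member was called, with the share of all probes not given here. Without the 2 arrays that stood apart, 9 were called against 2.04% of probes. Of these, Cdt1, Ccne2, Plk1, Plk4, Aurkb, Mad2l1, Kif2c and Anln were higher and E2f1 was lower. Plk4 then differed by 1.53 ± 0.269 (adjusted p = 0.016) and Anln, which builds the contractile ring, by 0.75 ± 0.0852 (adjusted p = 0.0019). Since these arrays were singled out by their values, the added calls are a description of the remaining arrays. Endothelial markers averaged 6.90 to 8.52 in NdpKO;Ptch+/- and 6.43 to 7.19 in Ptch+/- GNPs, and all 9 had positive differences. Astrocyte markers averaged 9.21 to 9.72 and 8.91 to 9.27. Their part was not tested.

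Against NdpKO GNPs, the compound mutant had no called member (limma), with 9 of 54 at an unadjusted p below 0.05 against 5.6% of probes, and 0.00442% of probes passed the adjusted threshold. Mitosis members had a median difference of 0.209 (17 of 19 positive). Without the 2 arrays, which were singled out by their values, 9 members were called against 1.45% of probes, 7 higher and 2 lower (Mcm2 and Rrm1). These calls describe the remaining arrays. Against WT, no member was called (limma), with 8 of 54 at an unadjusted p below 0.05 against 6.95% of probes, and 0.0508% of probes passed the adjusted threshold. Kif23 lay wholly above NdpKO (0.51 ± 0.139, adjusted p = 0.87) and wholly below WT (-0.46 ± 0.139, adjusted p = 0.46). It was the 1 of 40 members in each of these sets, which held 68 and 212 of the 6940 genes. Against NdpKO, the differences were 0.37 for Plk1, 0.29 for Aurka, 0.21 for Cdk1, 0 for Foxm1, -0.12 for Top2a, -0.21 for Mcm2, -0.11 for Mcm6, 0.25 for Pcna, 0.11 for Rrm2 and 0.06 for E2f1 (adjusted p 0.84 to 1). Against WT, they were 0.26 for Plk1, -0.02 for Aurka, -0.14 for Cdk1, -0.05 for Foxm1, 0.07 for Top2a, 0.2 for Mcm2, 0.1 for Mcm6, 0.14 for Pcna, 0.21 for Rrm2 and 0.02 for E2f1 (adjusted p 0.57 to 0.99). Plk1 was the 1 of 40 members wholly above WT, where 223 of the 6940 genes were. The medians against WT were 0.03 for S phase and -0.024 for mitosis members, and no member was called without the 2 arrays either.

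The interaction term asks whether the Ndp difference in Ptch+/- GNPs departed from that in Ptch1-intact GNPs. Cdt1 (0.64 ± 0.112, adjusted p = 0.04) and Plk4 (1.94 ± 0.377, adjusted p = 0.048) were called, 2 of 54 members against 0.495% of probes. For both genes the Ndp difference was negative in Ptch1-intact GNPs (-0.31 and -0.51) and positive in Ptch+/- GNPs (0.33 and 1.43). Mitosis members had a median interaction of 0.429 (0.186 over all 28), with 16 of 19 positive, whereas S phase members had one of -0.025 and the 6940 genes one of -0.033. Cdc6 (1.31, adjusted p = 0.057), Mad2l1 (0.36, adjusted p = 0.063) and Kif23 (0.83, adjusted p = 0.079) came nearest among the uncalled. The term was 0.74 for Aurka, 0.56 for Cdk1, 0.44 for Plk1, 0.27 for Foxm1, 0.44 for Pcna, -0.43 for Mcm2, -0.38 for Mcm6, -0.24 for E2f1, -0.06 for Rrm2 and -0.28 for Top2a, whose dimmer probe gave 1.05, none of them called. Without the 2 arrays, 18 members were called against 5.69% of probes, 14 higher and 4 lower, and the lower were Mcm2, Mcm5, Rrm1 and E2f1. Both arrays were singled out by their values, so the added calls describe the remaining arrays. Marker lists had interaction medians of 1.401 for astrocytes and Bergmann glia (9 of 9 positive), 1.43 for endothelium (9 of 9), 1.216 for microglia and leukocytes (3 of 3), -0.462 for differentiating granule neurons (8 of 9 negative) and -0.51 for progenitors (6 of 6 negative), and their part was not tested. Without NdpKO replicate 4 alone, 13 members were called, and with NdpKO;Ptch+/- replicate 2 placed by its genotype label, 0. The share of all probes is not given here for these fits, so their counts are not read as results about the members. Cdt1 was lost in 11 and Plk4 in 13 of 16 fits that left out 1 array (adjusted p up to 0.09 and 0.11). Cdt1 was lost without WT replicates 2 or 3, NdpKO replicates 1 or 3, NdpKO;Ptch+/- replicates 2, 3 or 4 or any Ptch+/- array. Plk4 was lost without any array other than WT replicate 4, NdpKO replicate 4 and NdpKO;Ptch+/- replicate 1. Over all settings, the mean of all probes among them, the Plk4 term ranged from 0.65 to 2.21.

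The tumours were compared with GNPs of the same genotypes in a model of tissue and genotype over 10 arrays. Helicase genes, E2f1 and Plk1 rose in the tumours, whereas Rfc3, Rrm2 and Cdk1 fell. Of 54 members 12 were called (22.2%), 9 higher and 3 lower, against 14.7% of probes and 17.7% of the 19057 genes. By phase, 30.8% of S phase and 14.3% of mitosis members were called, the latter below the share of all genes. Only 24% of probes had a mean of 5 or more, whereas 40 of the 54 members did, so these shares are not of equally bright features. With 1 tumour of each genotype, the spread between tumours of a genotype was not measured. The model assumes the same Ndp difference in tumours as in GNPs. Its residual spread comes mostly from the GNP arrays, and any departure of the tumours from that assumption also enters it.

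All 9 licensing and helicase members with a mean of 5 or more had positive differences (median 0.658), and Mcm2, Mcm4, Mcm7 and Cdc45 were called. Mcm4 measured 12.48 in the Ptch+/- and 12.27 in the NdpKO;Ptch+/- tumour against 11.37 to 11.67 in the 8 GNP arrays, and rose by 0.86 ± 0.0817 (adjusted p = 0.00029). Cdc45, which joins MCM in the active helicase, measured 9.24 and 8.93 against 8.13 to 8.46 (0.76 ± 0.108, adjusted p = 0.0024). Mcm2 measured 10.93 and 10.21 (0.84 ± 0.182, adjusted p = 0.018). Mcm7 was called by its brighter probe (0.60 ± 0.128, adjusted p = 0.017) and not by another (-0.02). Mcm6 missed the call by its brightest probe (0.66 ± 0.211, adjusted p = 0.086), while another probe passed (0.83, adjusted p = 0.015). Mcm3 (0.04) and Mcm5 (0.18) differed little, so the differences were uneven among subunits of the same ring.

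E2f1 measured 11.79 and 11.43 in the tumours, above all GNP arrays, and rose by 0.59 ± 0.066 (adjusted p = 0.00067). Uhrf1, which carries DNA methylation through replication, rose by 0.54 ± 0.101 (adjusted p = 0.0094). Rfc3, a clamp loader subunit, measured 6.08 and 6.28 against 6.75 to 7.37 in the GNPs and fell by 0.91 ± 0.14 (adjusted p = 0.0036). Rrm2 measured 8.44 and 8 and fell by 0.44 ± 0.105 (adjusted p = 0.028), with larger falls by its other probes (-1.57 and -1.56). Tyms, thymidylate synthase, was below all GNP arrays, uncalled by its brightest probe (-0.55, adjusted p = 0.13) and called by another (-1.11, adjusted p = 0.0093). Pcna (-0.23 ± 0.509) was too variable to place.

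Among mitosis members, Plk1 stood out at 10.16 and 10.12 in the tumours against 8.93 to 9.43 in the 8 GNP arrays, a rise of 0.98 ± 0.0827 (adjusted p = 0.00015). Bub1b rose by 0.28 ± 0.0588 (adjusted p = 0.016) and Cenpf, a kinetochore protein, by 0.96 ± 0.263 (adjusted p = 0.049) from levels near 5. The Bub1b call depended on the probe and the fit. It was lost with the mean of its 2 probes, with the probe of widest interquartile range, with array weights and against all 16 GNP arrays. Its difference stayed between 0.26 and 0.43 over the settings. Cdk1 measured 9.96 and 9.84 against 10.23 to 10.81 and fell by 0.50 ± 0.134 (adjusted p = 0.045), so Cdk1 and Plk1 moved in opposite directions. Aurka (-0.03), Foxm1 (0.44) and Top2a (0.11) were not called, although a dimmer Top2a probe rose by 1.5 (adjusted p = 0.0033). Birc5 and Cdc20 were uncalled by their brightest probes (-0.24 and -0.14), whereas other probes fell, by 0.69 and 0.68 for Birc5 and 1.20 for Cdc20. The calls of Cdk1, Rrm2 and Cenpf were lost in 6, 4 and 7 of the 8 fits that left out 1 GNP array (adjusted p up to 0.082, 0.053 and 0.086), and the other 9 calls in none of them. The arrays concerned were all Ptch+/- and NdpKO;Ptch+/- replicates 3 and 4 for Cdk1, replicates 1 and 2 of Ptch+/- and 2 and 3 of NdpKO;Ptch+/- for Rrm2, and every array except Ptch+/- replicate 1 for Cenpf. With the NdpKO;Ptch+/- tumour alone, the calls of Mcm2 (0.49, adjusted p = 0.22), Uhrf1 (0.1), Bub1b (0.13), Cdk1 (0.068) and Cenpf (0.3) were lost. With the Ptch+/- tumour alone, those of Mcm7 (0.47, adjusted p = 0.18), Uhrf1 (0.052), Bub1b (0.089), Rrm2 (0.24), Cdk1 (0.38) and Cenpf (0.17) were lost.

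Both tumours lay above all 8 GNP arrays for 10 of the 40 members, against 19.1% of the 6940 genes, and below for 4, against 26.6%. S phase members had a median difference of 0.247 (0.177 over all 26), mitosis members one of 0.107 (0.01 over all 28) and the 6940 genes one of -0.078. Read alone against GNPs of its genotype, the Ptch+/- tumour gave medians of 0.47 and 0.405, whereas the NdpKO;Ptch+/- tumour gave -0.2 for mitosis members. The median of the mitosis members was thus of opposite sign in the tumours, a difference that was not tested. Microglia and leukocyte markers averaged 11.02 and 9.99 in the tumours and 6.57 to 7.77 in the 8 GNP arrays, and oligodendrocyte markers 8.07 and 8.11 against 9.54 to 10.36. The oligodendrocyte average hides a split, with 3 of 6 markers higher and 3 lower. Mbp, Mog and Mag lay below all 8 GNP arrays, whereas Olig1 and Pdgfra lay above them. Endothelial markers averaged 5.49 and 6.06. Their part in the member differences was not tested.

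**Figure D5:**
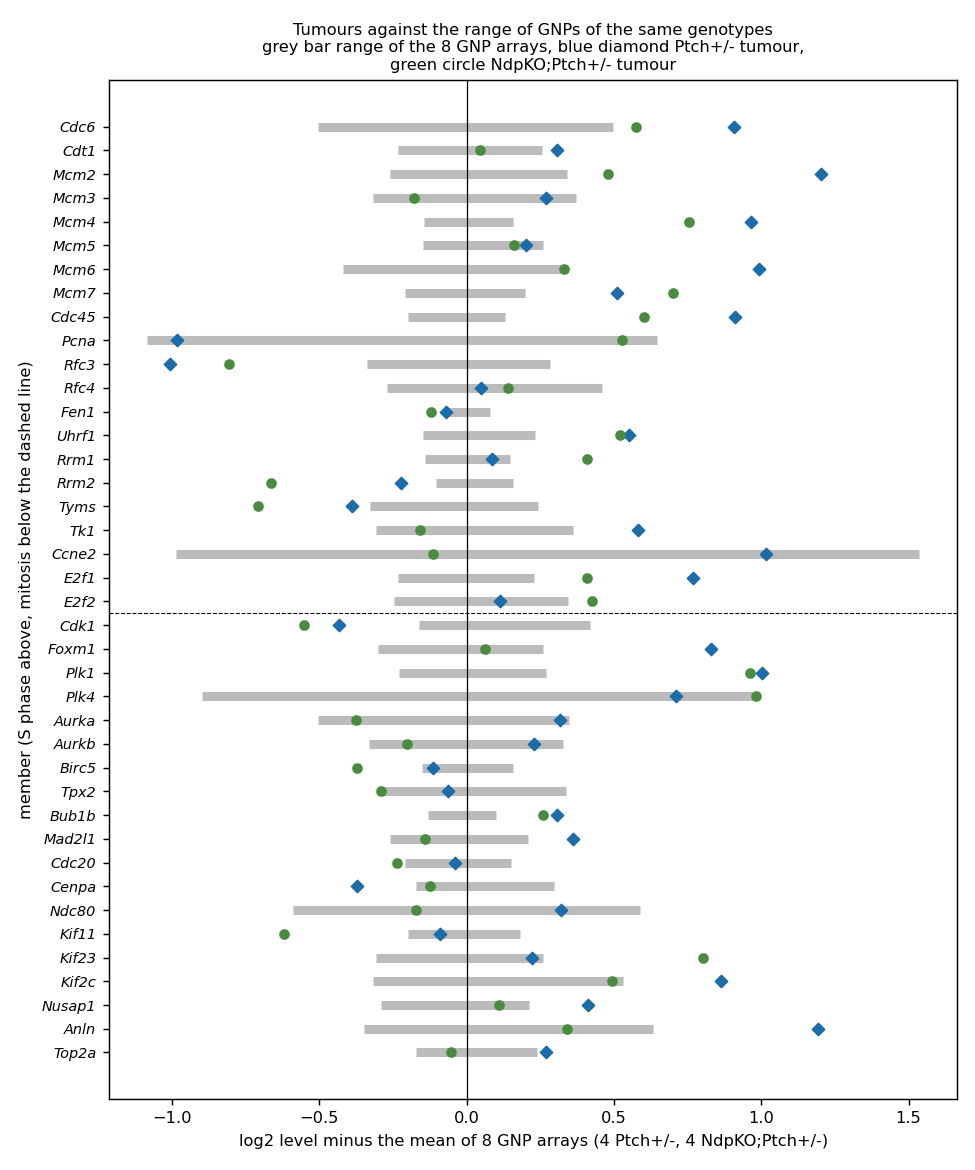
Level of the 2 tumours minus the mean of 8 Ptch+/- and NdpKO;Ptch+/- GNP arrays (log2), for 40 members, with the range of the 8 arrays as a grey bar. Both tumours lie above the bar for Mcm4, Cdc45 and Plk1 and below it for Rfc3, Rrm2 and Cdk1; the Ptch+/- tumour (diamond) lies to the right of the other for most members.

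Between the tumours there was no replicate and no test. The NdpKO;Ptch+/- tumour had the lower level for 31 of the 40 members (77.5%), against 50.7% of the 6940 genes, with medians of -0.256 for S phase members, -0.302 for mitosis members and -0.007 for the 6940 genes. The largest drops were Ccne2 (6.4 in the Ptch+/- and 5.27 in the NdpKO;Ptch+/- tumour), Anln (10.95 and 10.10), Foxm1 (9.42 and 8.65), the thymidine kinase gene Tk1 (10.07 and 9.33), Mcm2 (10.93 and 10.21) and Aurka (10.33 and 9.64). The largest gains were Pcna (4.75 and 6.26), Kif23 (10.64 and 11.22), Rrm1 (9.65 and 9.97), E2f2 (9.64 and 9.95), Plk4 (6.43 and 6.70) and Cenpa (12.97 and 13.22). Each of these differences except that of Foxm1 was smaller than the range of the same gene over the 16 GNP arrays. Plk1 (10.16 and 10.12) and Mcm4 (12.48 and 12.27) were nearly level.

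Other cell cycle genes, listed apart from the members, were read in the same fits. Of 35 measured replication genes, 3 were called in Ptch+/- against WT GNPs (8.57%, against 1.7% of all 19057 genes), with Cdc7, the kinase that fires origins, higher (0.40 ± 0.0858, adjusted p = 0.048) and the initiation factors Mcm10 (-0.50 ± 0.104, adjusted p = 0.042) and Topbp1 (adjusted p = 0.042) lower. Topbp1 lay near background in both groups, at 4.58 to 5.25 and 4.31 to 4.38, so its fold was not measured. Of 53 measured mitosis genes none was called by limma, with 11 at an unadjusted p below 0.05, where 3288 of the 19057 genes were, and 31 of the 37 with a mean of 5 or more had negative differences (median -0.179). In NdpKO GNPs 32 of these 37 were negative (median -0.14, none called, 10 at an unadjusted p below 0.05 against 2706 of the 19057). In NdpKO;Ptch+/- against Ptch+/- GNPs 30 of 37 were positive (median 0.153, none called, 13 at an unadjusted p below 0.05 against 2134 of the 19057). Of 16 genes of G1 entry and exit, 1 was called, as Ccnd2, cyclin D2, rose in Ptch+/- GNPs (0.52 ± 0.0785, adjusted p = 0.014), with WT at 11.89 to 12.06 and Ptch+/- at 12.41 to 12.60. Its interaction term was -0.68 (adjusted p = 0.033).

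In the tumours, 12 of the 35 replication genes were called (34.3%, against 17.7% of the 19057 genes) and all 12 rose, among them the methyltransferase gene Dnmt1 (1.06), the polymerase alpha subunit Pola2 (0.82) and Cdc7 (0.60). Topbp1 measured 6.62 and 6.34 in the tumours and 4.31 to 4.68, near background, in the GNPs. Of the 53 mitosis genes 9 were called (17%, a share close to that of all genes), 5 higher and 4 lower, among them Hjurp (1.5), Espl1 (0.99) and Cdca8 (-0.64). Melk measured 6.23 to 7.01 in the GNPs and 4.79 and 4.29, near background, in the tumours. Of the 16 G1 genes 9 were called (56.2%), 6 higher and 3 lower. The Cdk inhibitors Cdkn1b and Cdkn1c fell by 1.71 and 2.37, Cdkn1c from 11.20 to 11.84 in the GNPs to 9 and 9.37 in the tumours, whereas Ccnd2 (0.84) and Ccnd3 (1.16) rose.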

How the data were processed

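RNA of purified GNPs and tumours was hybridised to Illumina MouseWG-6 v2.0 arrays. The deposited values are log2 intensities of 45281 probes on 18 arrays, which the authors exported from BeadStudio and background-corrected and quantile-normalised with limma's neqc. Offsets added there compress differences near background, and the number of arrays limits the precision. Of the probes, 34885 carried 1 gene symbol, 18 several and 10378 none. Linear models were fitted in limma 3.58.1 (R 4.3.3) over the 16 GNP arrays, and for the tumours over 10 arrays with genotype as covariate, and p-values were adjusted by Benjamini-Hochberg over all probes, with a call below 0.05. A gene was read from its probe of highest mean level. Members called in a comparison were named, 14 genes were named in every comparison, as were the 6 highest and 6 lowest differences between tumours, and at most 4 called genes of each other list, those of lowest adjusted p. Alternatives covered filters, probes, weights, normalisation, a replicate block and single arrays. Members, lists, the level of 5 and the arrays that stood apart were chosen with earlier results of these data known. Scripts were tested on simulated data.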

Additional observations from a re-analysis of the deposited data

Results flagged for a closer look

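In 12 of 160 groups of 4 GNP arrays, a member's highest or lowest array lay far from the other 3, where chance flags about 1 in 20 groups, or 8. The widest gaps were for Ccne2, at 6.59 in NdpKO replicate 4 against 4.35 to 4.45 and at 4.60 in NdpKO;Ptch+/- replicate 1 against 6.60 to 6.92. Those arrays also stood apart for Cdk1 (10.68 in NdpKO replicate 4, against 10.12 to 10.18), and for Rrm1 (9.70, against 9.42 to 9.46) and Aurkb (9.40, against 9.83 to 9.91) in NdpKO;Ptch+/- replicate 1. In Ptch+/- GNPs, Mcm3 was low in replicate 1 (8.06, against 8.5 to 8.52) and E2f1 high in replicate 2 (11.25, against 11.13). In NdpKO;Ptch+/- GNPs, Fen1 was high in replicate 2 (11.03) and Tyms low in replicate 3 (10.48). E2f2 was low in NdpKO replicate 3 (9.30), and Cenpa (13.27) and Anln (9.60) were low in WT replicate 3.

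The Ndp difference departed between Ptch+/- and Ptch1-intact GNPs for Cdt1 (interaction 0.64) and Plk4 (1.94) by limma's interaction term, with adjusted p of 0.04 and 0.048.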

How the results depend on the processing

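Over 31 settings, 9654 of 9964 single-gene results kept their direction and their side of the threshold or moved by little, 92 lost a call, 150 gained one, 67 moved and 1 reversed, which was Top2a in Ptch+/- against WT GNPs at -0.85 by the probe of widest interquartile range. The cause of these changes was not tested. Replicate numbers are not stated to pair the arrays. Same-numbered arrays of different groups had a median correlation of deviations of -0.0412 (-0.339 to 0.471, 24 pairs), and 4 of 16 arrays correlated best with their own number. These values show no strong common signal and cannot show whether some arrays were paired. With the replicate block, members called fell to 0 in NdpKO against WT and to 0 for the interaction.

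Shares of all probes are given above only for the main fit and for the fit without the 2 arrays that stood apart. The other counts of this section are not read as results about the members. Restricting the fit to probes with a mean of 5, or to those at 5 in at least 4 arrays, gave 2 members called in NdpKO against WT, 1 in NdpKO;Ptch+/- against Ptch+/-, 9 for the interaction and 19 in the tumours. A trended robust fit gave 1 in NdpKO;Ptch+/- against Ptch+/- and 6 for the interaction, and array weights 4 for the interaction and 7 in the tumours. Counting the array of disagreeing labels as NdpKO gave 0 in NdpKO against WT and 0 for the interaction, with a mitosis median of 0.313. The groups compared alone gave 7 in Ptch+/- and 0 in NdpKO against WT. The mean of all probes and the probe of widest interquartile range gave 0 in NdpKO against WT and an S phase median of -0.053 between the tumours, with an interaction mitosis median of 0.273 for the former and a tumour S phase median of 0.335 for the latter. Cyclic loess gave tumour medians of 0.389 (S phase) and 0.254 (mitosis). Each tumour alone gave 0.47 and 0.405 for the Ptch+/- tumour and a mitosis median of -0.2 for the other. Without the 2 arrays that stood apart, members called were 9 in Ptch+/- against WT, 8 in NdpKO against WT, 9 in NdpKO;Ptch+/- against Ptch+/-, 9 against NdpKO and 18 for the interaction, with S phase and mitosis medians of 0.03 and -0.254 in NdpKO against WT, -0.026 and 0.404 in NdpKO;Ptch+/- against NdpKO, and -0.09 and 0.573 for the interaction.

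Leaving out 1 array at a time, members called ranged from 1 to 4 in Ptch+/- against WT, 0 to 3 in NdpKO against WT, 0 to 1 in NdpKO;Ptch+/- against Ptch+/-, 0 to 0 against NdpKO and against WT, 0 to 13 for the interaction and 9 to 13 in the tumours. S phase medians ranged, in the same order, from 0.007 to 0.076, -0.105 to 0.066, -0.025 to 0.033, 0.001 to 0.076, 0 to 0.074, -0.082 to 0.01 and 0.233 to 0.258. Mitosis medians ranged from -0.293 to -0.199, -0.254 to -0.103, 0.168 to 0.298, 0.144 to 0.341, -0.059 to 0.041, 0.361 to 0.536 and 0.081 to 0.121. Signal over background limits the 12 members below 5 on every array, which gave no usable level.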
